A study of Mus musculus with 21 samples.

Results

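A set of 10 p53 target genes of metabolism and stress was followed through the p53 peak lists of ID8 cells: the mTORC1 inhibitors Sesn1, Sesn2 and Ddit4, the detoxification and small-molecule enzymes Ephx1, Ak1, Abhd4 and Aldh4a1, the glycolysis and glutamine genes Tigar and Gls2, and the secreted stress signal Gdf15. They are 10 of 49997 RefSeq genes. Any peak that the deposited annotation named for one of them, or that lay within 5 kb of its RefSeq gene span on mm10, was taken as a peak of that gene. This gave 10 of the 2127 WT-specific peaks, 11 of the 6811 WT peaks and 4 of the 9784 KO peaks. ID8 is an immortalised epithelial line from the ovarian surface of C57BL/6 mice. WT cells carried intact Trp53 (Trp53+/+) and KO cells lacked it (Trp53-/-), and both were untreated and growing asynchronously. Contacts were mapped by CUT&RUN, in which an antibody brings a nuclease to its target protein in permeabilised cells and the DNA cut beside it is sequenced. Of the 21 samples of the series, 2 WT and 2 KO samples were treated with an antibody to p53. The sources used here do not say whether the KO line was 1 clone.

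The deposited lists hold 1 set of intervals for each genotype, so no value below has a replicate behind it and no test across samples could be made. Read depth is unknown, and a gene with no listed peak was not shown to lack p53. The files hold no expression values, so the epithelial label could not be checked against marker genes. WT-specific is the authors' name for a list of WT peaks, and its rule is not stated in the labels or files. The KO list is the background of the same antibody in cells without p53.

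The transcription factor p53 is stabilised by DNA damage and other stress and binds DNA as a tetramer, at a response element made of a pair of similar half-sites. Besides arrest and cell death genes, its known targets include genes that slow growth and reshape metabolism. Ddit4 (REDD1) and the sestrins lower the activity of mTORC1, the kinase complex that drives protein synthesis when nutrients are plentiful. Tigar restrains glycolysis, Gls2 converts glutamine to glutamate in mitochondria, and Gdf15 is a circulating cytokine of cell stress.

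A WT-specific peak was found at 6 of the 10 genes, namely Sesn2, Ddit4, Ephx1, Ak1, Abhd4 and Aldh4a1, whereas 3.37% of all RefSeq genes had one by the same rule. Among protein-coding genes, 4.93% had one within 5 kb (95% exact binomial interval 4.64 to 5.22, for counting error only). A WT peak of any kind was found at 7 of the 10, with Sesn1 added, against 9.03% of all genes and 12.95% of protein-coding genes. KO peaks lay near 4 of the 10, at Sesn1, Sesn2, Abhd4 and Gdf15, against 11.3% of all genes and 15.9% of protein-coding genes. This last count depended on the window, since none of the 4 KO peaks overlapped a gene span and 2 lay within 1 kb, and none was among the longer 50% of KO peaks. Tigar and Gls2 had no peak within 5 kb in any of the 3 lists. The genes were chosen as p53 targets with earlier results of these data known, so these shares describe the lists and no test was made of them.

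The peaks at these genes were seldom shared with KO cells. Of the 11 WT peaks, 1 overlapped a KO peak by at least 1 bp, against 59.4% of all WT peaks. The other 10 were in the WT-specific list, which took in 31.0% of all WT peaks. None of the 10 WT-specific peaks overlapped a KO peak, but only 3.34% of the whole WT-specific list did, so this count does not set these 10 apart. Of the 4 KO peaks, 1 overlapped a WT peak, against 41.0% of all KO peaks, and 4 peaks are too few to tell these apart.

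**Figure D1:**
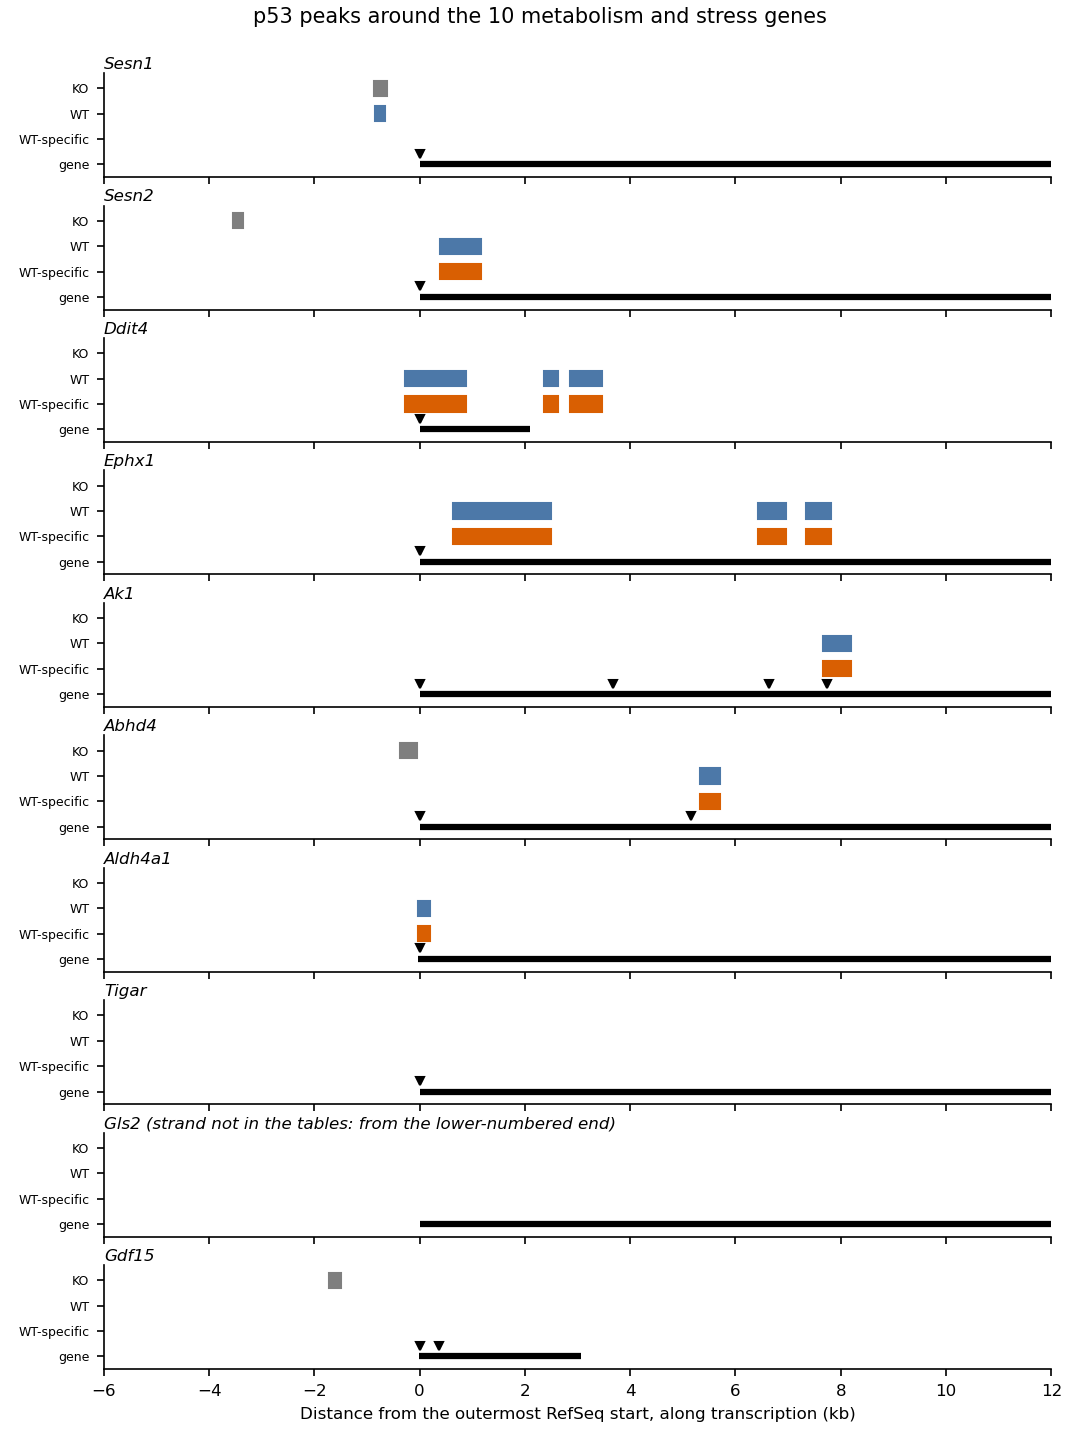
Peaks around each of the 10 genes, drawn by distance in kb from the outermost RefSeq start in the direction of transcription (Gls2 from its lower-numbered end, since its strand is not in the tables used). Black bars are gene spans, triangles are RefSeq starts, and boxes are peaks of the WT-specific (orange), WT (blue) and KO (grey) lists. Ddit4 and Ephx1 carry 3 WT-specific peaks each, and Tigar and Gls2 show none.

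The 250 bases before 4 RefSeq starts are printed here because a deposited peak covered them in whole or in part, which shows where the peak ended relative to the start. They are RefSeq sequence of GRCm38.p6, the assembly that mm10 represents, written 5′ to 3′ on the strand of the gene. Capitals mark bases inside a WT-specific peak for Ddit4 (chr10:59951771-59952020, minus strand), Aldh4a1 (chr4:139622644-139622893, plus strand) and the innermost start of Ak1 (chr2:32629250-32629499, plus strand). For the outermost start of Abhd4 (chr14:54253879-54254128, plus strand) they mark bases inside a KO peak.
Ddit4: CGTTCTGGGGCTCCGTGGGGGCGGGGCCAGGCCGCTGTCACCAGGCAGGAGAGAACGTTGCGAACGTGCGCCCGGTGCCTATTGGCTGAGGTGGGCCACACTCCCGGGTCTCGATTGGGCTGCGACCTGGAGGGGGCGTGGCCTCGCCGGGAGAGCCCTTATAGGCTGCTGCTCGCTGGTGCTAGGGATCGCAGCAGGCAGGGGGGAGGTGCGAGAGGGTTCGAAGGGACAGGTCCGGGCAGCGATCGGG
Aldh4a1: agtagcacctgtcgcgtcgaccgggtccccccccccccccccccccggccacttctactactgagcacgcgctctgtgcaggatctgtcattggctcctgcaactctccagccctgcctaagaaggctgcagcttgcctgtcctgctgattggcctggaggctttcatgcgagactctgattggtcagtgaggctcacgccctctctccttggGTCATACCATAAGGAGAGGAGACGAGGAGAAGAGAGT
Ak1: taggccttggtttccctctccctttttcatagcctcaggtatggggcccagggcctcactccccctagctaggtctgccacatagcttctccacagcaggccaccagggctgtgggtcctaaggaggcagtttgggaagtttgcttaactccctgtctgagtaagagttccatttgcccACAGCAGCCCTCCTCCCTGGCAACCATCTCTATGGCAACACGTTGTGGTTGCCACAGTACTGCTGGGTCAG
Abhd4: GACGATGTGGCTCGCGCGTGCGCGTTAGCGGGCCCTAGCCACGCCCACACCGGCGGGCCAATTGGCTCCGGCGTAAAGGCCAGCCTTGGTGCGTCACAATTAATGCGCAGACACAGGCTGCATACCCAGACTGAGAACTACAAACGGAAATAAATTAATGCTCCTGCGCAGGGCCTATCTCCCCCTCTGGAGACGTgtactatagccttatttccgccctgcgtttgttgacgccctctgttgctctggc
All 250 of these bases at Ddit4 lay inside the peak, against 37 at Aldh4a1 and 71 at Ak1, both next to the start. At Abhd4 the KO peak covered the first 196 bases and ended before the start.

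Among the mTORC1 inhibitors, Ddit4 and Sesn2 had WT-specific peaks and Sesn1 did not. Ddit4 encodes REDD1, which frees the TSC complex to switch off mTORC1 during hypoxia and other stress. It is a gene of 2096 bp (RefSeq gene 74747, chromosome 10, 59949675 to 59951770) and had 3 peaks, each of them in the WT and the WT-specific list. The longest, 1163 bp at 59950887 to 59952049, was annotated as promoter. It held the RefSeq start at 59951770 and was longer than 95.7% of all WT-specific peaks, ranking 31 of 324 in the promoter class by length. It also reached into the gene body.

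The other 2 Ddit4 peaks lay beyond the 3′ end of the gene and were annotated as intergenic, with no gene named. A peak of 270 bp (59949135 to 59949404) was 271 bp past the end, and a peak of 596 bp (59948314 to 59948909) was 766 bp past it. Their midpoints lay 2500.5 and 3158.5 bp downstream of the start. No other RefSeq gene was within 5 kb of any of the 3 peaks. The nearest KO peak was 28214 bp from the gene, nearer than the median of 129085 bp over all RefSeq genes. A lack of KO peaks within 5 kb is thus not particular to Ddit4.

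Sesn2 encodes sestrin 2, a stress-induced protein that senses leucine and restrains mTORC1 through the GATOR complexes. Its single WT-specific peak, 769 bp at 132509293 to 132510061 on chromosome 4, lay inside the gene (RefSeq gene 230784, 132492804 to 132510456). The near edge was 395 bp downstream of the RefSeq start. The deposited annotation placed it in a promoter but named RP23-63D8.4, a clone-based transcript name, in place of Sesn2. No other RefSeq gene was within 5 kb of this peak, which was longer than 85.0% of the WT-specific list. A separate KO peak of 197 bp lay 3351 bp upstream of Sesn2, with 3746 bp between it and the nearest WT peak.

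Sesn1, the sestrin gene best known as a p53 target under the older name PA26, had only a shared peak. It spanned 198 bp in WT (41809723 to 41809920 on chromosome 10) and 243 bp in KO (41809710 to 41809952). Both intervals lay upstream of the outermost RefSeq start, and the WT peak was 654 bp from the gene. The neighbouring gene Cep57l1 was within 5 kb of them too. This WT peak was short, longer than 6.96% of WT peaks, and it was not in the WT-specific list. Sesn1 spans 97863 bp (RefSeq gene 140742, 41810574 to 41908436) with a second RefSeq start at 41887439, and no listed peak fell inside that span. The 2 nearest WT-specific peaks, 227 and 673 bp long, were 26529 and 31352 bp past its end in introns of Armc2, and the longer one overlapped an RLTR1B long terminal repeat.

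All 4 detoxification and small-molecule enzyme genes had a WT-specific peak that overlapped the gene span. Ephx1, the microsomal epoxide hydrolase that converts reactive epoxides to diols, had the most covered sequence, 2872 bp in 3 peaks. They were annotated as intronic, on chromosome 1 within a gene of 28014 bp on the minus strand (RefSeq gene 13849, 180989556 to 181017569). The peak of 1857 bp (181015078 to 181016934) was the longest of all 673 intronic WT-specific peaks and lay 635 bp downstream of the RefSeq start. The others, of 528 bp (181010609 to 181011136) and 487 bp (181009749 to 181010235), had midpoints 6696.5 and 7577 bp downstream of the start. The promoter of Ephx1 itself, from 250 bp before the start to 50 bp after it, held no peak in any list. The nearest KO peak was 36987 bp from the gene.

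Ak1 and Abhd4 each had 1 peak deep in the gene, in both cases beside an inner RefSeq start and not at the outermost one. Ak1 encodes the cytosolic adenylate kinase, which balances adenine nucleotides. Its peak of 521 bp (32629429 to 32629949 on chromosome 2) had its midpoint 7931 bp from the outermost start, but it held the innermost of 4 RefSeq starts, at 32629500. Ak1 (RefSeq gene 11636, 32621758 to 32635058) was also the member farthest from the KO list, with the nearest KO peak 246647 bp away. No peak of any list covered its other 3 starts.

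Abhd4 encodes a lipase of N-acyl phospholipid metabolism. Its peak of 373 bp (54259456 to 54259828 on chromosome 14) had its midpoint 5513 bp from the outermost start (RefSeq gene 105501, 54254129 to 54269169). It began 173 bp downstream of the inner of 2 RefSeq starts, at 54259283. At the outermost start the picture was the reverse: a KO peak of 327 bp (54253748 to 54254074) ended 55 bp before the gene, with no WT peak there. That KO peak was also within 5 kb of the neighbour Dad1. The gap between the 2 peaks was 5382 bp.

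Aldh4a1, a mitochondrial dehydrogenase of proline breakdown that yields glutamate, had the shortest WT-specific peak of the 10, at 229 bp (139622857 to 139623085 on chromosome 4). It held the RefSeq start at 139622894 (RefSeq gene 212647, 139622871 to 139649691) and was longer than only 12.04% of WT-specific peaks. The gene Iffo2 was within 5 kb of it as well. The nearest KO peak was 23447 bp from Aldh4a1.

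The glycolysis and glutamine genes differed from both groups above in their counts, with 0 of 2 genes near any listed peak. Of all RefSeq genes, 3.37% had a WT-specific peak, 9.03% a WT peak and 11.3% a KO peak nearby, so 0 of 2 is the usual case. Sesn1 and Gdf15 had no WT-specific peak either. Around Tigar (RefSeq gene 319801, chromosome 6, 127085116 to 127109552) the nearest WT peak was 145187 bp away, the nearest KO peak 61153 bp and the nearest WT-specific peak 337051 bp. Around Gls2 (RefSeq gene 216456, chromosome 10, 128194635 to 128210004) the nearest WT and KO peaks were 43861 and 43700 bp away, and the nearest WT-specific peak 232370 bp. Over all RefSeq genes, the median distance to the nearest peak was 149007 bp for WT, 129085 bp for KO and 403274 bp for WT-specific peaks. By this measure Tigar was close to the typical gene for WT peaks and nearer than typical to KO and WT-specific peaks. Gls2 was nearer than typical to all 3 lists. With 2 genes, 4 enzymes and 3 inhibitors, the difference between the groups was not tested.

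Gdf15, a secreted member of the TGF-beta family that signals stress through the brainstem receptor GFRAL, had no WT peak within 5 kb. It did have a KO peak, of 218 bp (70633959 to 70634176 on chromosome 8), 1489 bp upstream of the gene (RefSeq gene 23886, 70629393 to 70632470), also within 5 kb of Gm34154. The WT peak nearest to that KO peak was 14961 bp from it. The nearest WT-specific peak was 16667 bp from Gdf15. It was 1150 bp long (70649137 to 70650286), was annotated to the 3′ UTR of Pgpep1, and overlapped the SINEs PB1D10 and ID_B1. Under the 5 kb rule it does not count for Gdf15.

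**Figure D2:**
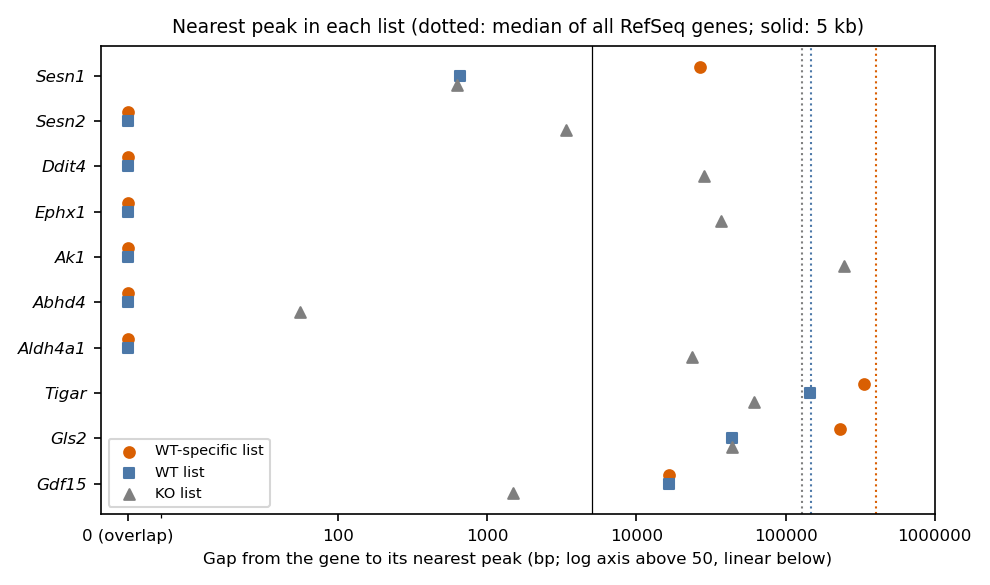
Gap in bp from each gene to its nearest peak in the WT-specific (circles), WT (squares) and KO (triangles) lists, on an axis that is logarithmic above 50 bp and linear below. The solid line is 5 kb and dotted lines are medians over all RefSeq genes. The 6 genes named above have a WT-specific peak at 0, overlapping the gene, while Tigar and Gls2 lie right of the 5 kb line in all 3 lists.

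Peak length, the only measure of size in the files, ranged widely among the 10 WT-specific peaks. Their median was 524.5 bp (229 to 1857), and 7 of 10 were longer than the median of the whole WT-specific list, 454 bp. The length of a peak is not its height, which the files do not give. By group, the 4 peaks of the mTORC1 inhibitors covered 2798 bp (270 to 1163 bp each) and the 6 peaks of the enzyme genes covered 3995 bp (229 to 1857 bp each), so the ranges of the groups overlapped. The KO peaks near these genes were short, from 197 bp at Sesn2 to 327 bp at Abhd4, and all 4 were under the KO median of 345 bp.

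**Figure D3:**
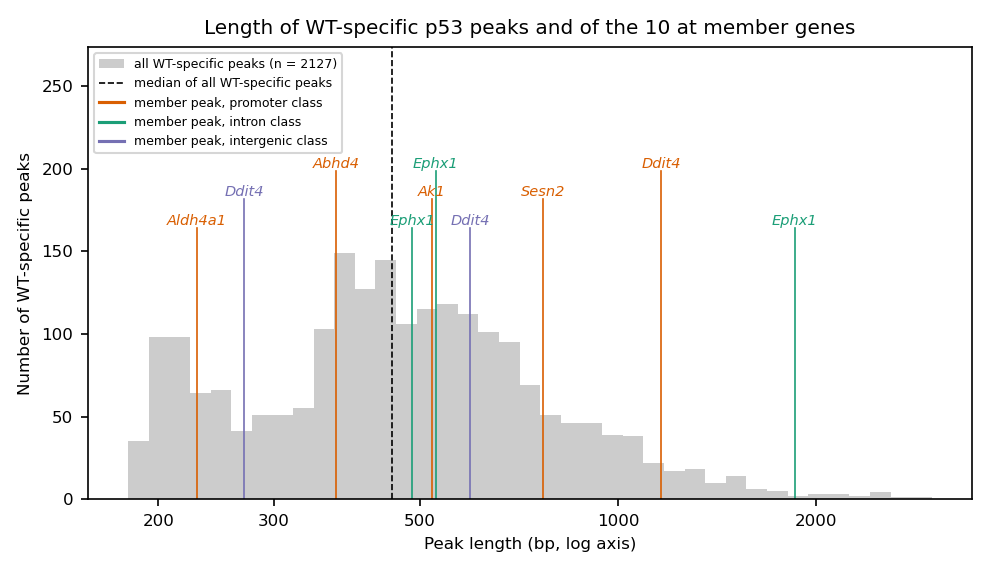
Lengths of all 2127 WT-specific peaks (grey histogram, log axis in bp) with the 10 member peaks as coloured lines by annotation class. The dashed line is the median of all WT-specific peaks, 454 bp. Ephx1 and Ddit4 hold the longest member peaks (1857 and 1163 bp) and Aldh4a1 the shortest (229 bp).

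Ddit4 and Ephx1 were unusual in the number of peaks per gene. Of the 1659 RefSeq genes with at least 1 WT-specific peak within 5 kb, 188 (11.3%) had at least 2 and 26 (1.57%) had at least 3. Both genes were among those 26. Their 3 peaks lay within 2856.5 bp of each other at Ddit4 and 6014 bp at Ephx1, counted between the outer midpoints. Peaks this close share a locus and are not independent of each other.

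The deposited annotation split the 10 peaks evenly between promoters and other classes. Promoter was the class of 5 of the 10 peaks (Sesn2, Ddit4, Ak1, Abhd4 and Aldh4a1), against 15.2% of all WT-specific peaks. The other 5 were the 3 intronic peaks of Ephx1 and the 2 intergenic ones past Ddit4. A RefSeq start lay inside 3 of the 10 (Ddit4, Ak1 and Aldh4a1), against 3.57% of all WT-specific peaks (95% exact binomial interval 2.83 to 4.45). All 3 were among the 5 promoter-class peaks, and 21.0% of all promoter-class peaks (16.7 to 25.8) held a start. The promoter table lists starts for 9 of the 10 genes and is not complete, so these shares can miss starts. The 10 peaks were also taken for lying in or near a gene, whereas 1004 of all 2127 WT-specific peaks were intergenic. That choice by itself favours promoters and starts, and the shares were not recounted for peaks near genes only.

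Few of these peaks lay on a repeat. A repeat overlapped 3 of the 10, against 67.9% of all WT-specific peaks, and none of the 10 overlapped a long terminal repeat, against 46.8%. These are unlike sets, since the 10 were taken for lying in or near a gene and 1004 of the 2127 WT-specific peaks were intergenic. The repeat shares of WT-specific peaks near genes alone were not counted, so a lack of repeats particular to these genes was not shown. The peak 766 bp past Ddit4 held a whole B1F element, a SINE of 140 bp that made up 23.5% of the peak and covered its midpoint. The longest Ephx1 peak overlapped 50 bp of an L2 LINE, 2.69% of its length and 204 bp from its midpoint. The Ephx1 peak of 487 bp held a (GA)n simple repeat of 52 bp, 143 bp from the midpoint. Sesn2, Ak1, Abhd4 and Aldh4a1 had no repeat in their WT-specific peaks.

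The promoter windows of the genes were searched for the p53 response element by its pattern: a pair of half-sites, each of 3 purines, a C, A or T, A or T, a G and 3 pyrimidines, with 0 to 13 bases between them. The C and the G had to match, and at most 2 other mismatches were allowed. The pattern reads alike on both strands. Of 15 windows of 300 bp, at 9 of the genes, 1 held a match, against 4.09% of all 32851 RefSeq windows. The match was at the inner start of Sesn1 (chr10:41887253-41887275, plus strand), at positions -186 to -164 from the start at 41887439. The capitals mark the 2 half-sites and the lower case letters between them the spacer.
Sesn1: GCGCTTGGCCttcAAGCTTGTTT
It has 2 mismatches, and no WT or KO peak covered it. The windows of Ddit4, Ak1 and Aldh4a1 that a WT-specific peak overlapped held no match under this rule. Among all 163 windows that overlapped a WT-specific peak, 12.3% held one (95% exact binomial interval 7.66 to 18.3). The windows cover only part of the peaks: 300 of 1163 bp at the Ddit4 promoter, 121 of 521 bp at Ak1 and 87 of 229 bp at Aldh4a1. They held no base of the WT-specific peaks at Ephx1, Sesn2 or Abhd4, or of the 2 past the 3′ end of Ddit4. The sequence under those peaks was not searched.

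The wider pathways were described with 5 lists of other genes, 113 in all. A WT-specific peak was at 10 of the 113 (8.85%), a WT peak at 26 (23.0%) and a KO peak at 26 (23.0%). Over all protein-coding genes these shares were 4.93%, 12.95% and 15.9%, so the listed genes were above them in the KO list as well as in the WT lists. Of the 10 genes with a WT-specific peak, 8 had no KO peak within 5 kb. Most protein-coding genes had none either, since 15.9% had one, so this count does not set the 10 apart.

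Of 26 other genes of mTORC1 inhibition and nutrient sensing, 3 had a WT-specific peak, 6 a WT peak and 7 a KO peak. Ddit4l, a relative of Ddit4 with a similar action on mTORC1, had a promoter peak of 530 bp whose midpoint lay 346.5 bp downstream of its start (chromosome 3, 137623754 to 137624283). Tsc2, the mTORC1 brake on which REDD1 acts, had a peak of 553 bp annotated as 5′ UTR, although its midpoint was 27679 bp from the outermost start. Rptor, the scaffold of mTORC1, had 2 intronic peaks of 204 and 903 bp, with 3 KO peaks also within 5 kb of the gene span.

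Of 25 other detoxification and redox genes, 4 had a WT-specific peak, 10 a WT peak and 6 a KO peak. None of the 4 had a KO peak within 5 kb. Only 15.9% of protein-coding genes had one, so this count does not set the 4 apart. The share in the whole list, 6 of 25, was above 15.9%. Mgst1, a microsomal glutathione transferase, had a promoter peak of 200 bp. Aldh1a1, a retinaldehyde dehydrogenase, had a promoter peak of 526 bp and an intronic one of 268 bp. Aldh2, the mitochondrial aldehyde dehydrogenase, had an intronic peak of 303 bp. A peak of 233 bp lay 730 bp past Txnip, an inhibitor of thioredoxin, and was annotated to another transcript.

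The remaining lists had fewer genes with a WT-specific peak, at 5.88%, 6.45% and 0% in the order below, against 4.93% of protein-coding genes. Of 17 other genes of adenylate, lipid and proline metabolism, 2 had a WT peak and 2 a KO peak. In this list Lpin1, a phosphatidate phosphatase, had 2 intronic WT-specific peaks of 396 and 355 bp. Of 31 other glycolysis and glutamine genes, 2 had a WT-specific peak, 5 a WT peak and 6 a KO peak. Hk1, a hexokinase, had an intronic peak of 540 bp, with 1 KO peak within 5 kb of the gene span. Slc2a1, the glucose transporter GLUT1, had an intronic peak of 917 bp. None of 14 other genes of the integrated stress response had a WT-specific peak, while 3 had a WT peak and 5 a KO peak. The KO shares of these lists, in the same order, were 11.8%, 19.4% and 35.7%, against 15.9% of protein-coding genes.

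**Figure D4:**
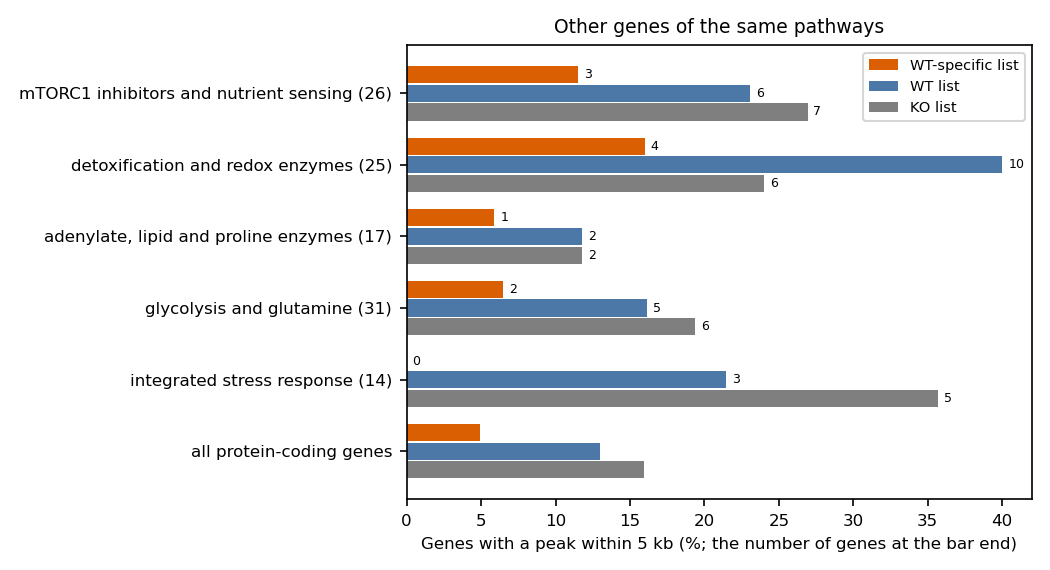
Share of genes (%) with a WT-specific, WT or KO peak in 5 lists of other pathway genes (the number of genes in parentheses, the number with a peak at each bar end) and over all protein-coding genes. For the lists, a peak that the annotation names for the gene counts as WT-specific too. The detoxification list has the highest WT-specific share, 4 of 25, and the integrated stress response list has 0 of 14.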

How the data were processed

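The data were 6 deposited tables on mm10, 3 peak lists (WT, KO and WT-specific, the last also as a BED file) and 2 annotations of the WT-specific list. Per the file headers, the lists give a chromosome, a start and an end for each peak and no score, height or p-value. Starts were read as 0-based and are printed 1-based. Named in the submitters' processing notes are MACS2, Bowtie2, fastp and deepTools. For their versions, order and settings, and for any pooling of replicates before peak calling, the answer was not given in the sources used here. The depth is unknown. The histone modification and IgG samples were not analysed here.

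Gene spans came from RefSeq GRCm38.p6, and starts and sequences from its promoter table, which holds 9 of the 10 genes. An overlap was at least 1 bp. The interval and motif counts were written in Python 3.11.15 (scipy 1.17.1, pandas 2.3.3, numpy 2.4.6) and were tested on simulated data. The 10 genes, the 5 pathway lists and the rules were chosen with earlier results of these data known. All 10 genes are named, with the other listed genes that had a WT-specific peak. Alternatives covered the window, the peak list, the overlap, the class, the repeat rule and the motif rule. Marker genes of epithelial cells, fibroblasts and leukocytes, 11 in all, were only counted for peaks. A WT-specific peak was at 1 of 5, 1 of 3 and 0 of 3 of them (3.37% of all genes), a WT peak at 2, 1 and 0 (9.03%), and a KO peak at 3, 0 and 0 (11.3%).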

Additional observations from a re-analysis of the deposited data

How the results depend on the processing

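The number of the 10 genes with a WT-specific peak, 6 as reported, stayed between 4 (longer 50% of the list) and 8 (50 kb window), and was 5 by the deposited name alone, where Sesn2 dropped out. The number with a WT peak, 7 as reported, ranged from 5 (longer 50% of the list) to 9 (50 kb). The number with a KO peak was less stable: 4 as reported, it was 0 inside the gene spans (7.25% of all genes), 2 with 1 kb (8.62%), 8 with 50 kb (30.8%) and 0 with the longer 50% of KO peaks (5.92%). With 50 kb, 11.9% of all genes had a WT-specific peak and 27.3% a WT peak. With the longer 50% of each list, 1.72% of all genes had a WT-specific peak within 5 kb and 4.90% a WT peak. The count of peaks with a repeat, 3 as reported, was 0 when a repeat share of at least 50% of the peak was required and 1 when the midpoint had to lie in a repeat. Of the 15 windows, the number with a motif match, 1 as reported, was 0 with at most 1 mismatch (0.627% of all windows). It was 4, at 4 genes, with at most 3 mismatches (15.6%) and 0 with a spacer of 0 to 1 (0.682%). The counts of WT peaks that a KO peak overlapped and of promoter-class peaks did not change under the alternatives run. No paired analysis was possible because each list joins both samples of a genotype, and for the same reason no replicate could be left out.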

Other observations

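Over all RefSeq genes, the mean number of peaks within 100 kb was 0.820 for WT, 1.16 for KO and 0.254 for WT-specific peaks. Around Abhd4 there were 10 KO peaks and 6 WT peaks, of which 1 was WT-specific. Of these KO peaks, 8 lay between 25866 and 67757 bp before the gene, with lengths from 388 to 1428 bp. Around Ddit4 there were 9 WT peaks, 5 of them WT-specific, and 3 KO peaks, and 1 of those 5, outside the 5 kb window, overlapped a KO peak. Sesn2 had 7 WT peaks, 3 of them WT-specific, and 3 KO peaks. Sesn1 had 3 WT peaks and 1 KO peak, and Ephx1 had 4 and 1. The WT and KO counts were 5 and 5 at Aldh4a1, 6 and 7 at Gdf15, 1 and 1 at Gls2, and 0 and 1 at Tigar. Ak1 had its own WT peak and no other peak of any list in that distance.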
